A study of Mus musculus with 11 samples.

Results

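CD8 T cells that stayed high for a Tcf7 reporter were compared with cells that stayed low for it, by their open chromatin at day 9. The libraries were chosen by their labels: those of cells sorted as Tcf7-YFP high at day 3 and again at day 9 (high_to_high, 2 libraries), and those of cells sorted as Tcf7-YFP low at both days (low_to_low, 3 libraries), together 5 of the 11 libraries of the series. All were mouse CD8+ T cells from the spleen that carried the Tcf7-YFP reporter and were cultured after the first sort, and the strain, age and culture conditions of these cells are not given in the sources used here. A further 3 libraries, of cells first sorted as low and then as high (low_to_high), lent their spread to the test, and single libraries of naive splenocytes (CD44-negative, CD62L-positive, reporter-positive), antigen-experienced splenocytes (CD44-positive, CD62L-positive, reporter-positive) and effector cells after 3 days of activation ex vivo served as references. The comparison asks how far the chromatin of the 2 lasting reporter states differs after they have been cultured apart. The labels do not give the animals or cultures behind the replicates, so p-values here cover the spread between these libraries, which may be technical.

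Tcf7 encodes TCF-1, a DNA-binding factor that is abundant in naive and memory T cells and is lost as CD8 T cells become terminal effectors. Its relative LEF-1, BACH2 and FOXP1 are other factors of naive and memory T cells, whereas T-bet, ZEB2 and ID2 drive the effector programme. In ATAC-seq a transposase inserts sequencing adapters where DNA is not packed, so the number of tags at a site measures how open it is, at enhancers and promoters alike.

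Each library came as its own list of peaks, with 48037 and 62581 peaks in high_to_high libraries and 52003, 56744 and 48261 in low_to_low libraries. The level of a region is given as a normalized tag count, which is scaled to 10 M (mega) tags per library and counts the tags of the peak window. Merging the peaks of all 11 lists where they shared at least 1 bp gave 111041 regions. Of these, 37844 had a peak in each of the 5 compared libraries and 34383 in each of the 8 day 9 libraries, and the test was run on those 34383. Total depth was 25.8 and 59.97 M tags in high_to_high libraries, against 40.7, 41.9 and 23.3 M in low_to_low libraries. The share of tags inside peaks was 9.01 and 9.75% in high_to_high libraries and 10.4, 12.47 and 10.8% in low_to_low libraries, without overlap, so it cannot be told apart from the reporter state. In the single reference libraries the share was 15.01% for naive, 15.75% for antigen-experienced and 9.08% for effector cells. Reference values of single regions are given on the deposited scale, and the part of these shares in them was not tested. High_to_high replicate 2 had a peak window of 136 bp, while the windows of the other 4 compared libraries were 172 bp wide. Regions lay inside all 11 genes of T cell identity in at least 1 of the 5 libraries, and inside 9 of them in all 5. Inside Cd8a, a defining gene of CD8 T cells, a region was called in high_to_high replicate 2 alone, and inside Cd8b1 in low_to_low replicates 2 and 3 alone. Regions also lay inside 6 of 10 B cell, 9 of 12 myeloid, 3 of 9 natural killer and 4 of 8 erythroid marker genes, such as Pax5, Spi1, Nfil3 and Klf1, in at least 1 of the 5 libraries. They lay inside none of the B cell genes Ms4a1 and Cd79a, the myeloid genes Lyz2, Csf1r and Adgre1, the natural killer genes Ncr1 and Tyrobp and the globin genes Hba-a1 and Hbb-bs. Accessibility at Tcf7 itself does not check the sort by a reporter protein, and it is described further on.

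Few regions passed the test between the 2 states, and almost all that did were more open in cells that stayed high. Relative to the typical region, 192 regions (0.558% of those tested) were more open in cells that stayed high, and 13 (0.0378%) were less open (limma, Benjamini-Hochberg adjusted p under 0.05). Fold changes are high_to_high minus low_to_low, on centred log2(normalized tag count + 1). For the more open regions the median was 0.93, with a range of 0.58 to 1.73, and 168 genes were assigned to them. The less open ones had a median of -0.56, with a range of -0.84 to -0.51, at 13 genes. In all 205 (0.596%) the values of the 2 groups did not overlap, as for 12.9% of all tested regions upward and 12.7% downward. At an unadjusted p under 0.05 the counts were nearly balanced, with 1818 regions higher (5.29%) and 1594 lower (4.64%).

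As whole profiles, libraries of different groups stood little further apart than the 2 high_to_high libraries did from each other. The difference between the high_to_high libraries had an SD of 0.287 over the tested regions (centred log2 values), against 0.281 to 0.316 for the 6 pairs of 1 high_to_high and 1 low_to_low library. The narrower window of high_to_high replicate 2 enters the first value, and its part was not tested. The 3 low_to_low libraries were closer among themselves, at 0.244 to 0.273.

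The split into more and less open is relative to the typical region. Without centring the typical tested region was 0.30 lower (log2) in high_to_high libraries, and on that deposited scale limma called 149 regions higher and 7261 lower. When the model held the percentage of tags in peaks as a covariate, limma called 0 regions (684 higher and 945 lower at an unadjusted p under 0.05). All 192 kept a positive fold change there, with a median of 0.67 and a median SE of 0.29, but they were chosen by that sign in the same libraries. Single libraries moved the counts. Without high_to_high replicate 1 there were 48 more open and 98 less open regions, without high_to_high replicate 2 there were 85 and 17, without low_to_low replicate 1 there were 297 and 18, without low_to_low replicate 2 there were 66 and 2, and without low_to_low replicate 3 there were 113 and 4. Leaving out low_to_high replicate 2 gave 179 and 7. Of the 192 more open regions, 29 were called whichever of the 8 libraries was left out, and of the 13 less open regions, 0 were.

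**Figure D1:**
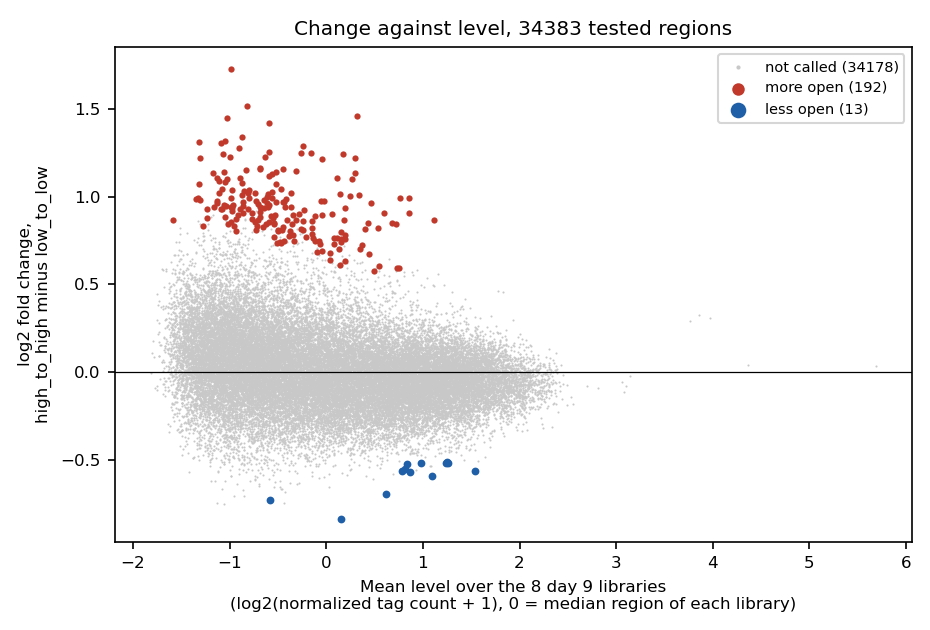
Each point is 1 of the 34383 tested regions, with the mean level over the 8 day 9 libraries on the horizontal axis (centred log2 values) and the log2 fold change of high_to_high minus low_to_low on the vertical axis. The 192 more open regions (red) lie at low and middle levels with changes up to 1.73, and the 13 less open ones (blue) reach down to -0.84, most of them at higher levels.

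The strongest single change lay inside Dgkg, which encodes diacylglycerol kinase gamma, an enzyme that turns the second messenger diacylglycerol into phosphatidic acid. The region (chr16:22526376-22526688, mm10) held a normalized tag count of 16.3 and 15 in high_to_high libraries, against 5.65, 4.9 and 4.94 in low_to_low libraries. Both high_to_high values were far above every low_to_low value, and the log2 fold change was 1.73 ± 0.20 (SE; limma adjusted p = 2.19e-05). Low_to_high libraries lay between, at 11.7, 8.67 and 9.36. The day 9 cells were all below the references here, with 31.6 in naive, 37.3 in antigen-experienced and 44.4 in effector cells. The region in Dgkg was called under each omission of 1 library, with a limma adjusted p of at most 0.00511.

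A region in Shroom3, whose protein binds actin and shapes epithelial cells, had the next lowest p (chr5:92863955-92864269). It held 36.4 and 35.7 in high_to_high libraries, against 19.3, 12.7 and 15 in low_to_low libraries, a log2 difference of 1.46 ± 0.18 (limma adjusted p = 5.93e-05). The groups were well separated, and the region was called in none of the 3 reference libraries. A region 10098 bp from Nostrin, which encodes a trafficking factor of endothelial nitric oxide synthase, was likewise missing from the naive and antigen-experienced lists and held 11.7 in effector cells. Its values were 15.7 and 11.3 in high_to_high and 7.01, 5.49 and 5.37 in low_to_low libraries, again without overlap (1.34 ± 0.21, limma adjusted p = 0.000881).

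Ncald, Mcoln2 and Nf1 also held regions among the 15 more open ones with the lowest p. In Ncald, which encodes the calcium sensor neurocalcin delta (chr15:37482439-37482791), high_to_high libraries held 33.9 and 24.8, against 15.6, 13.7 and 14.2 in low_to_low libraries. In Mcoln2, the gene of an endolysosomal cation channel (chr3:146192631-146192878), the values were 23.4 and 20.8 in high_to_high and 10.8, 10.4 and 11.4 in low_to_low libraries. Both regions had a log2 difference of 1.25 ± 0.17 (limma adjusted p = 0.000234), and both showed a tight low_to_low group far below the high_to_high values. In Nf1, whose product neurofibromin switches off Ras (chr11:79460859-79461105), high_to_high libraries held 31 and 20.8 and low_to_low libraries 13.8, 12.9 and 11.2 (1.25 ± 0.18, limma adjusted p = 0.000407). The high_to_high libraries of Nf1 differed widely from each other, though both exceeded all 3 low_to_low libraries. The naive library held 55 and the antigen-experienced library 62.2 at this region, which was not on the effector list.

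Stra6, Aldh1a3, Scp2 and Fabp4 had further regions of the 15. In Stra6, the gene of the cell-surface receptor for retinol-binding protein (chr9:58131812-58132030), the values were 19.4 and 15.6 in high_to_high and 9.47, 8.72 and 7.73 in low_to_low libraries. In Aldh1a3, which encodes an enzyme that makes retinoic acid (chr7:66416687-66416894), they were 26 and 18.8 in high_to_high and 14.1, 10.8 and 7.73 in low_to_low libraries. In both genes the lower high_to_high library still lay above the highest low_to_low library, with log2 fold changes of 1.23 and 1.29. Scp2, the gene of a sterol carrier protein (chr4:108081084-108081306), held 22.3 and 18.3 in high_to_high and 11.1, 11.8 and 9.45 in low_to_low libraries (1.14 ± 0.17, limma adjusted p = 0.000629). A region 4431 bp from Fabp4, a fatty acid binding protein gene (chr3:10213047-10213418), held 18 and 14.3 in high_to_high and 9.59, 5.14 and 4.94 in low_to_low libraries. Low_to_low replicate 1 stood above the other low libraries there, and the log2 difference was 1.52 ± 0.23 (limma adjusted p = 0.000629).

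The remaining regions of the 15 lay at Btg1, Naa30, Evi5, Slc17a8 and Rnpepl1. A region 14385 bp from Btg1, an antiproliferative gene that helps keep mouse T cells quiescent (chr10:96602375-96602616), held 38.3 and 35.6 in high_to_high and 27.3, 24.4 and 22.8 in low_to_low libraries (0.85 ± 0.14, limma adjusted p = 0.000957). The naive and antigen-experienced libraries held 45.8 and 66.9 at Btg1, and the effector list did not hold the region. A region 16317 bp from Naa30, the catalytic subunit of an N-terminal acetyltransferase, had tight groups, with 15.1 and 14.6 in high_to_high and 6.76, 6.93 and 7.3 in low_to_low libraries (1.28 ± 0.20). Evi5, which encodes a Rab GTPase-activating protein, held 33.1 and 28.2 in high_to_high and 19.9, 17.1 and 11 in low_to_low libraries (1.22 ± 0.17). Slc17a8, a vesicular glutamate transporter gene, rose by 1.26 ± 0.20, and a region 1302 bp from Rnpepl1, an aminopeptidase-like gene, by 1.01 ± 0.15. All 15 were also called with cyclic loess scaling and on the deposited scale, and 14 were called under each omission of 1 library. The exception was Aldh1a3, whose limma adjusted p was 0.0505 without high_to_high replicate 1.

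**Figure D2:**
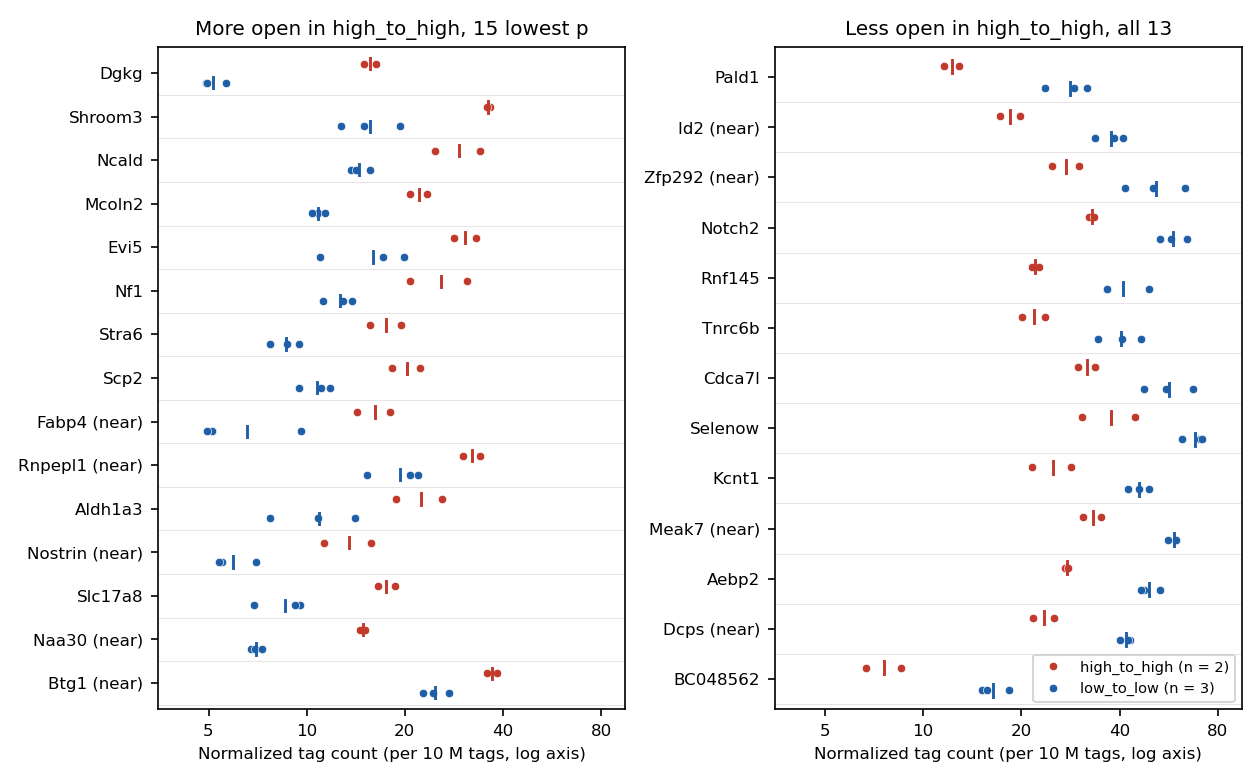
Normalized tag count (tags per 10 M, log axis) of each library at the 15 more open regions with the lowest p (left) and at all 13 less open regions (right), with high_to_high in red above low_to_low in blue; points are libraries, vertical ticks are group means, and "near" marks a region outside the gene span. At Dgkg the high_to_high libraries hold 16.3 and 15 against at most 5.65 in low_to_low libraries, and at Pald1 they hold 11.6 and 12.9 against at least 23.6.

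Among regulators that work with TCF-1 or mark memory cells, 3 of 135 tested regions at 16 genes (2.22%) were more open in high_to_high libraries and 0 were less open, against 0.558 and 0.0378% of all tested regions. The lists were chosen with earlier results of these data known, and their counts have no test. The median log2 fold change of the 135 was -0.01, as over all tested regions (-0.01). The clearest of the 3 lay in Foxp1, which holds naive T cells in quiescence (chr6:99486292-99486538), with 26.7 and 25.8 in high_to_high and 21.1, 11.3 and 12.7 in low_to_low libraries. Low_to_low replicate 1 came nearest to the high_to_high values, and the log2 difference was 1.10 ± 0.20 (limma adjusted p = 0.00232). This was 1 of 23 tested regions at Foxp1, whose changes ran from -0.46 to 1.10 with 10 above and 13 below 0. In Bach2, a repressor of effector differentiation (chr4:32423730-32423982), the values were 24.8 and 21.4 in high_to_high and 17.8, 20.4 and 16.8 in low_to_low libraries, a difference of 0.61 ± 0.15 (limma adjusted p = 0.0417). On the deposited scale the Bach2 groups were separated by 1 tag per 10 M at the nearest point, and the other 25 of its 26 tested regions were not called. A region 76952 bp from Ikzf2, the gene of Helios, held 13.9 and 11.9 in high_to_high and 9.71, 6.69 and 6.87 in low_to_low libraries (0.97 ± 0.20, limma adjusted p = 0.0125).

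Regulators of effector cells had regions in both directions, with 2 of 63 tested regions more open (3.17%, against 0.558% of all tested) and 1 less open (list median 0.01). Near Tbx21, which encodes T-bet (1556 bp away, chr11:97096144-97096451), high_to_high libraries held 17.8 and 13 and low_to_low libraries 11.8, 9.56 and 7.3 (0.93 ± 0.21, limma adjusted p = 0.0251). In Zeb2, a repressor that acts with T-bet in terminal effectors (chr2:45017270-45017504), they held 22.5 and 16.9 in high_to_high and 11.4, 16.1 and 10.5 in low_to_low libraries (0.90 ± 0.18, limma adjusted p = 0.00738). On the deposited scale the lower high_to_high library was only slightly above the highest low_to_low library at both genes. The typical tested region was 0.30 lower (log2) in high_to_high libraries on that scale, and the test used centred values. The less open region lay 94331 bp from Id2, an inhibitor of E proteins that favours effector cells (chr12:25190423-25190742). It held 17.2 and 19.8 in high_to_high, 25.8, 31.2 and 30.2 in low_to_high and 33.6, 41 and 38.5 in low_to_low libraries. On the deposited scale the 3 groups were ordered without overlap. In the centred values of the test, high_to_high differed from low_to_low by -0.70 ± 0.13 (limma adjusted p = 0.00603). In the references the region near Id2 held 5.86 in naive, 15.8 in antigen-experienced and 43.3 in effector cells.

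Diacylglycerol kinases, phospholipases C and calcium channels had 3 of 79 tested regions more open (3.8%, against 0.558% of all tested) and 0 less open, in a list drawn up when the Dgkg result was known, so its count is not independent evidence. Beside Dgkg, a region in Plch2, the gene of phospholipase C eta 2 (chr4:155050102-155050386), held 19.8 and 18.3 in high_to_high and 11.2, 6.57 and 7.3 in low_to_low libraries (1.42 ± 0.24, limma adjusted p = 0.00119). Both other tested regions at Plch2 had positive changes that were not called, and the lowest of the 3 was 0.07. In Cacna1d, which encodes a pore subunit of L-type calcium channels (chr14:30427969-30428215), the values were 10.5 and 11.5 in high_to_high, 11.7, 13.2 and 13.2 in low_to_high and 6.39, 7.53 and 6.02 in low_to_low libraries. On the deposited scale all low_to_high libraries stood above the high_to_high ones, and high_to_high differed from low_to_low by 0.94 ± 0.18 (limma adjusted p = 0.00707).

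Of 69 tested regions at 18 genes of DNA methylation and chromatin regulators, 2 were more open (2.9%, against 0.558% of all tested) and 0 less open, both at genes of enzymes that oxidise methylated cytosine. A region 18464 bp from Tet2 (chr3:133563600-133563874) held 15.9 and 14.8 in high_to_high and 11.2, 10.2 and 9.88 in low_to_low libraries (0.81 ± 0.19, limma adjusted p = 0.0280). A region in Tet1 (chr10:62840778-62841047) held 20.7 and 19.4 in high_to_high and 16.3, 16.2 and 12.7 in low_to_low libraries (0.69 ± 0.16, limma adjusted p = 0.0351). Neither pair of groups overlapped. On the deposited scale the calls at Tet2, Tet1 and Bach2 were lost, with limma adjusted p of 0.0539, 0.106 and 0.172.

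Among markers of CD4 and regulatory T cells, 2 of 26 tested regions were more open (7.69%, against 0.558% of all tested), at a distance of 26981 bp from Cd40lg, which encodes CD40 ligand, and in Nrp1, the gene of the co-receptor neuropilin 1. The first (chrX:57184873-57185162) held 10.1 and 10.6 in high_to_high and 5.78, 7.41 and 4.94 in low_to_low libraries (0.99 ± 0.20, limma adjusted p = 0.00962), and the second (chr8:128433440-128433704) 13 and 14.8 in high_to_high and 7.25, 9.8 and 5.8 in low_to_low libraries (1.10 ± 0.19, limma adjusted p = 0.00196). The groups overlapped at neither region. On the deposited scale the low_to_low libraries at Nrp1 spread over a wider range than the gap between the groups. The test used centred values. Over the whole list, regions lay inside 8 of the 10 genes in at least 1 of the 5 libraries, and inside Il17a and Tnfrsf4 in none. Inside Foxp3, the defining gene of regulatory T cells, 1 region was called, at 3 in high_to_high replicate 2 and 3.34 in low_to_low replicate 2. The summed level of the list's 26 regions was 0.0494 and 0.0514% of all tested regions in high_to_high libraries, against 0.0466, 0.0462 and 0.0491% in low_to_low libraries, and the part of such cells in the result was not tested.

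The other lists held 1 call at most. Fatty acid handling had 1 of 50 tested regions more open (2%, against 0.558% of all tested), the one near Fabp4, and 0 less open. The lists of memory surface and survival genes (67 tested regions), effector molecules (63), inhibitory receptors and exhaustion (57), interleukin-2 receptor and signalling (46), T cell receptor signalling (103), glycolysis (64), cell cycle (53), AP-1 factors (45) and T cell identity (45) had 0 calls by limma in either direction. Their median log2 fold changes ran from -0.09 for T cell identity and -0.08 for effector molecules to 0.02 for memory surface and survival and for T cell receptor signalling. The B cell (18 regions), myeloid (26), natural killer (21) and erythroid (6) marker lists had 0 calls by limma too, with medians of -0.08, -0.02, -0.08 and -0.12. The 13 lists without a call held 614 tested regions, of which 24 were higher and 37 lower at an unadjusted p under 0.05. At the share of all tested regions, each of these lists would hold fewer than 1 call. The 19 lists together held 1036 tested regions, of which 13 were more open (1.25%) and 1 less open.

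**Figure D3:**
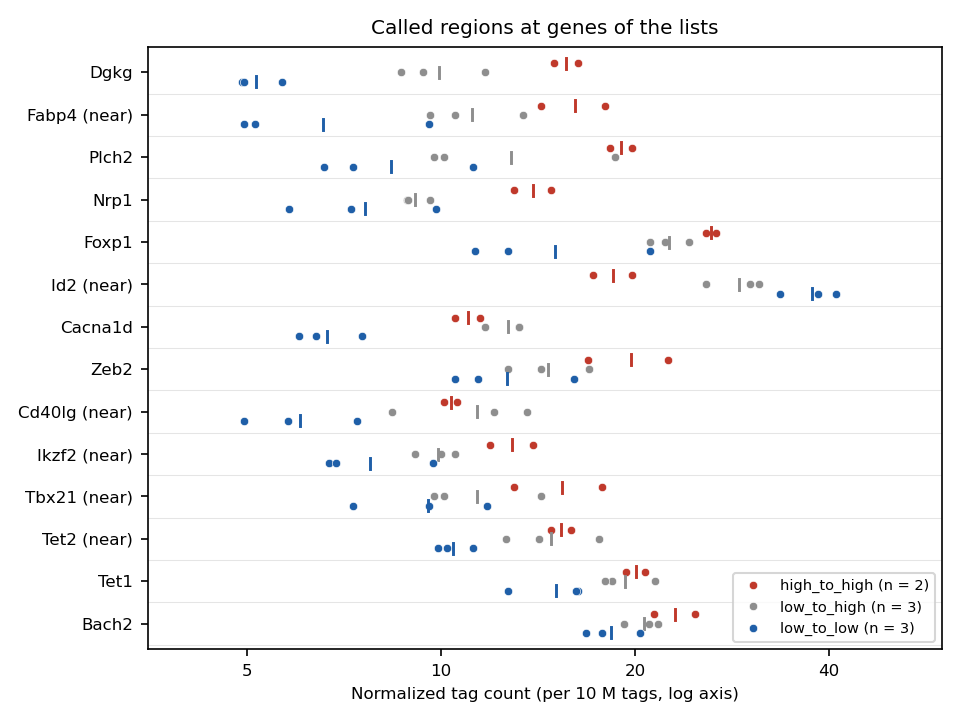
Normalized tag count (tags per 10 M, log axis) of the 8 day 9 libraries at the 14 called regions that belong to a gene of the lists, with high_to_high in red, low_to_high in grey and low_to_low in blue; points are libraries and vertical ticks are group means. The region near Id2 holds 17.2 and 19.8 in high_to_high against at least 33.6 in low_to_low libraries, and the other 13 regions have both red points above all blue points.

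At most of these genes 1 region was called among several that did not pass the test. The 11 tested regions at Nrp1 ran from -0.57 to 1.10 with 8 below 0, and the 26 at Bach2 from -0.24 to 0.61. Of the 5 tested regions at Dgkg, 3 had positive changes, with a median of 0.02. At Ikzf2 all 4 tested regions had positive changes, from 0.32 to 0.97. Of the 14 called regions at listed genes, those at Dgkg, Fabp4, Plch2 and Foxp1 were called whichever library was left out. Leaving out high_to_high replicate 1, for example, gave a limma adjusted p above 0.05 for Id2 and Zeb2, and leaving out high_to_high replicate 2 for Nrp1 and Cacna1d.

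Pairs of called regions fell at 6 genes, all more open. Etv6, which encodes a repressor of the ETS family, had one inside the gene (chr6:134067528-134067918; 21.1 and 18.7 in high_to_high, 13.8, 8.84 and 12.7 in low_to_low libraries) and another 3807 bp away (chr6:134273965-134274258; 20.1 and 13.7 in high_to_high, 11.6, 6.57 and 10.3 in low_to_low libraries). All 6 tested regions at Etv6 had positive changes, from 0.17 to 1.07. In Peli2, an E3 ubiquitin ligase gene of innate signalling, both lay inside the gene and rose by 1.02 ± 0.18 (chr14:48226061-48226427) and 0.97 ± 0.19 (chr14:48271168-48271436), among 8 tested regions. Fstl4, a follistatin-like gene, also had positive changes in all 6 of its tested regions, 2 of them called (0.86 and 0.70). Fbxl17, an F-box gene, had called regions at 1.02 and 0.93. Adpgk, the ADP-dependent glucokinase gene, had one inside the gene at 0.89 and another 91895 bp away at 0.87. The distant one was weak, with 7.55 and 6.84 in high_to_high and 4.18, 4.18 and 5.16 in low_to_low libraries. Gypc, the glycophorin C gene, had one inside the gene at 0.87 and another 38128 bp away at 0.87. The region inside Gypc stood well above the median level of the more open regions, with 57.1 and 42.8 in high_to_high and 40, 32.3 and 27.3 in low_to_low libraries.

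Less open regions were led by one inside Pald1, which encodes a protein with phosphatase-like domains (chr10:61334589-61334843). It held 11.6 and 12.9 in high_to_high, 22, 21.7 and 18.5 in low_to_high and 29.1, 31.9 and 23.6 in low_to_low libraries. On the deposited scale the groups were ordered without overlap. In the centred values of the test, high_to_high differed from low_to_low by -0.84 ± 0.15 (limma adjusted p = 0.00301). A region 3613 bp from Zfp292, a zinc finger gene, held 30 and 24.8 in high_to_high and 41.7, 63.4 and 50.7 in low_to_low libraries (-0.59 ± 0.13, limma adjusted p = 0.0174). In Tnrc6b, which encodes a scaffold of microRNA silencing, the values were 20.1 and 23.7 in high_to_high and 40.7, 46.6 and 34.4 in low_to_low libraries (-0.56 ± 0.13, limma adjusted p = 0.0303). In Aebp2, whose product is a cofactor of Polycomb repressive complex 2, they were 27.3 and 27.8 in high_to_high and 47.7, 53.3 and 46.4 in low_to_low libraries (-0.52 ± 0.13, limma adjusted p = 0.0417). All 3 regions were clearly lower in both high_to_high libraries on the deposited scale. Kcnt1, a sodium-activated potassium channel gene (-0.57), Meak7 (-0.52), Dcps, a decapping scavenger enzyme gene (-0.53), and BC048562 (-0.73) completed those away from gene starts. Cyclic loess scaling kept 6 of the 13 less open regions, those at Pald1, Id2, Zfp292, Notch2, Selenow and BC048562.

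The other 4 less open regions lay on annotated gene starts, at Notch2, Rnf145, Cdca7l and Selenow, whereas 1 of the 192 more open regions did, at Tank. Notch2, a receptor gene whose signal supports effector differentiation of mouse CD8 T cells (chr3:98013346-98013611), held 32.3 and 33.5 in high_to_high, 43, 41.9 and 41.8 in low_to_high and 53.1, 64.3 and 57.6 in low_to_low libraries. All 3 groups were separate on the deposited scale. In the centred values of the test, high_to_high differed from low_to_low by -0.51 ± 0.12 (limma adjusted p = 0.0256). Rnf145, a ubiquitin ligase gene of sterol control, held 21.5 and 22.7 in high_to_high and 36.6, 49.3 and 36.7 in low_to_low libraries (-0.55 ± 0.13). Cdca7l, a gene related to the cell division gene Cdca7, held 33.7 and 29.8 in high_to_high and 47.7, 67.3 and 55.4 in low_to_low libraries (-0.52 ± 0.12). Selenow, which encodes selenoprotein W, held 44.5 and 30.8 in high_to_high and 62.1, 70.5 and 71.5 in low_to_low libraries (-0.57 ± 0.13). At all 4 both high_to_high libraries were below every low_to_low library, with limma adjusted p of 0.0256 to 0.0335. Tank, which encodes a regulator of NF-kB signalling (chr2:61578427-61578768), held 13.9 and 9.75 in high_to_high and 7.13, 8.72 and 7.3 in low_to_low libraries (0.83 ± 0.20, limma adjusted p = 0.0361). On the deposited scale high_to_high replicate 2 was close to the low_to_low values at Tank. The call at Tank was lost with cyclic loess scaling and on the deposited scale, with limma adjusted p of 0.0744 and 0.0589.

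The 250 bases before these 5 gene starts are shown because the called regions overlap them and because they differ in base composition. The windows do not cover all of the peaks. In the 5 compared libraries, peak centres ran from -280 to -118 bp of the start at Rnf145 and from -63 to 96 bp at Tank. The region at Tank overlapped 2 annotated windows, of which 1 is shown. They are RefSeq sequences of GRCm38.p6, written 5′ to 3′ in the direction of the gene, with CG dinucleotides in capitals. The windows are chr3:98013288-98013537 for Notch2, chr11:44518706-44518955 for Rnf145, chr12:117843611-117843860 for Cdca7l and chr2:61578336-61578585 for Tank, all on the plus strand, and chr7:15922372-15922621 on the minus strand for Selenow.
Notch2: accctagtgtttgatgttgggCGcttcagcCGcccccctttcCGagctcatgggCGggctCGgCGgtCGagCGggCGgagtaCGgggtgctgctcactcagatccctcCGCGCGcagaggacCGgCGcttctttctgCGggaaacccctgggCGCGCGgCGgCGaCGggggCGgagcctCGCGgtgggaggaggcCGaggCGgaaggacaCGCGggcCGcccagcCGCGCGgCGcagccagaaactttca
Rnf145: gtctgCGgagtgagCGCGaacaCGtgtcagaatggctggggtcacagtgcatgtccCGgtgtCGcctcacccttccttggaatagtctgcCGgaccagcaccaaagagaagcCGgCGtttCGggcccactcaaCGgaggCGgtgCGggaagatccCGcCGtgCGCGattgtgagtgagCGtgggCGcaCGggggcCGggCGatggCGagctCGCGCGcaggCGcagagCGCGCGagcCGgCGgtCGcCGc
Cdca7l: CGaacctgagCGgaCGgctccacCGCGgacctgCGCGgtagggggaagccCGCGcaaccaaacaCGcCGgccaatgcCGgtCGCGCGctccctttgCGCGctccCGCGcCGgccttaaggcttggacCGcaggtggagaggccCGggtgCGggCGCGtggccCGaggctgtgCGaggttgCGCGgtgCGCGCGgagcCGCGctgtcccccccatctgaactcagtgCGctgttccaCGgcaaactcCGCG
Selenow: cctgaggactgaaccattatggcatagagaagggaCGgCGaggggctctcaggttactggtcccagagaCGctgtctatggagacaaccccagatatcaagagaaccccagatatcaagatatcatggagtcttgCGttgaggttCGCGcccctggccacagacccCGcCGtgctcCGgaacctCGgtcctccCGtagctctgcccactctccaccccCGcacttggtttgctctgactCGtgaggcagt
Tank: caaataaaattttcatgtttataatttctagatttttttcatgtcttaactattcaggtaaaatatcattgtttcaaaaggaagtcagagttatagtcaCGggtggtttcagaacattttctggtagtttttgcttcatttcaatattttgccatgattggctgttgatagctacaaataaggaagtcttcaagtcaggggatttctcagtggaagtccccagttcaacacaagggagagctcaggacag
The less open starts of Notch2, Rnf145 and Cdca7l held 34, 34 and 38 CG dinucleotides and a GC content of 72, 69.2 and 73.2%, and that of Selenow 13 and 58.4%. The more open start of Tank held 1 and 35.2%. Over all 32619 gene starts on these chromosomes, tested or not, the median was 6 CG dinucleotides and 52.4% GC. The 7420 tested regions on gene starts held more CG. Of these, 2051 had 0 to 11 CG dinucleotides and 1932 had 12 to 17. A further 1688 had 18 to 23, and 1749 had 24 to 56. Among tested starts, Notch2, Rnf145 and Cdca7l thus fell in the highest range and Tank in the lowest. Selenow fell in the range of 12 to 17 and was not rich in CG. The letters CTTTGA (TCF/LEF), CCGGAAG (ETS), TGTGGT (RUNX) and TGANTCA (AP-1), searched on both strands, were in none of these 5 windows, against 13.9, 6.96, 13.9 and 6.78% of all 32619.

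Over all tested regions the same contrast by position was present but small. Regions on gene starts had a median log2 fold change of -0.06 (7420 regions), those inside genes away from starts 0.01 (15532) and those between genes 0.02 (11431). With cyclic loess the median at gene starts was -0.03. Gene starts with the most CG dinucleotides, 24 to 56 in the window, had a median of -0.11 (-0.07 with loess), and those with 0 to 11 a median of -0.03 (-0.00 with loess). Of the more open regions 0.521% lay on a gene start, of the less open ones 30.8% and of all tested regions 21.6%. The share inside a gene was 60.9% of the more open and 69.2% of the less open regions, against 63.7% of all tested. No gene lay within 100 kb of 18 of the more open regions (9.38%), against 3.66% of all tested.

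The more open regions lay at low and middle levels. Their median level was 16.1 tags per 10 M in high_to_high, 13 in low_to_high and 9.95 in low_to_low libraries, whereas the less open regions had 24.9, 34.4 and 45.8 and all tested regions 16.3, 17.8 and 20.3, in the same order of groups. In quartiles of the tested regions by mean level, from weakest to strongest, 62, 87, 40 and 3 regions were more open and 0, 1, 5 and 7 less open. The median log2 fold change of these quartiles was 0.09, 0.02, -0.04 and -0.05, and about 0 in each with cyclic loess, which gave 179 more open and 6 less open regions. Gene starts made up 4.36% of the weakest and 51.0% of the strongest quartile.

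The more open regions were also compared with the single libraries of naive, antigen-experienced and effector cells, which has no replicate check. Of the 192, 161 (83.9%) were on the naive list and 171 (89.1%) on the antigen-experienced list, against 89.6 and 90.9% of all tested regions. A smaller part, 94 (49.0%), were on the day 3 effector list, against 75.4% of all tested regions, and 87 (45.3%) were on the naive but not the effector list, against 19.8%. The lower share in the effector list held within each quartile of level, with 51.6, 48.3, 47.5 and 33.3% of the more open regions from weakest to strongest, against 65.3, 70.1, 75.3 and 90.9% of all regions of the quartile. The share in the strongest quartile rests on 3 more open regions. Of the 192, 1 lay on a gene start, and away from gene starts the effector list held 64.4, 68.9, 70.0 and 83.6% of all regions of the quartile. In the naive list the shares were 77.4, 86.2, 87.5 and 100% of the more open regions, against 79.1, 87.2, 93.3 and 98.8%. Regions in Mcoln2, Evi5, Nf1, Scp2 and Plch2 and near Btg1 were among those on the naive and antigen-experienced lists and not on the effector list. A region missing from a list fell under the peak caller's thresholds and is not known to be closed.

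**Figure D4:**
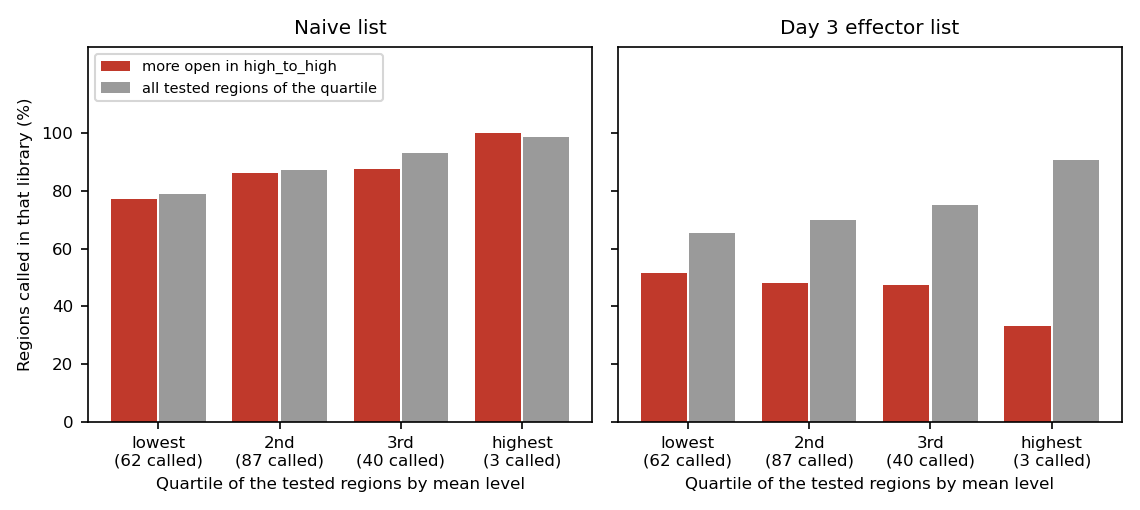
Share of regions (percent) found on the single naive list (left) and the single day 3 effector list (right), for the regions more open in high_to_high (red) and for all tested regions (grey), in quartiles of mean level from lowest to highest. On the effector list the red bars stand at 33.3 to 51.6%, below the grey bars at 65.3 to 90.9% in each quartile, with 3 regions behind the last red bar, while on the naive list the red bars stand at 77.4 to 100% and the grey bars at 79.1 to 98.8%.

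Where these sites were called in all libraries, their level could be placed among the references. Over the 73 more open regions called in all 11 libraries, the median centred log2 value was -0.15 and -0.37 in high_to_high, -0.74, -0.80 and -0.71 in low_to_high and -1.01, -1.37 and -1.30 in low_to_low libraries. The naive, antigen-experienced and effector libraries had -0.56, -0.52 and -0.58. The day 9 values chose these regions and are a description. The references lay between high_to_high and low_to_low for this set, but the 73 were also required to have a peak in each reference library, so their reference levels are in part set by the choice. Of the 161 more open regions on the naive list, 106 (65.8%) were above all 3 low_to_low libraries in the naive library, against 51.3% of all tested regions on that list. In the antigen-experienced library these shares were 64.9 and 46.7%, and in the effector library 61.7 and 35.0%. Choosing regions that are low in low_to_low libraries favours such shares.

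The Tcf7 gene itself (chr11:52246527-52283383) held 6 regions in at least 1 of the 5 libraries, of which 1 was tested and none called. The tested region (chr11:52265656-52265891) had values of 64.9 and 49.8 in high_to_high and 61.8, 76.2 and 65.3 in low_to_low libraries, with a log2 difference of 0.05 ± 0.12 (limma adjusted p = 0.939). The groups overlapped there. A region called in both high_to_high libraries and in no low_to_low library (chr11:52268506-52268696) had 31 and 26.3. Its peaks were 4.2 and 4.4 times the surrounding signal by the authors' ratio, close to their threshold of 4, and the nearest low_to_low peak was 2625 bp away. The region at chr11:52274027-52274269 was called in all 5 but not in all 8 day 9 libraries, so it was not part of the main test. It held 23.4 and 16.2 in high_to_high and 16.1, 15.9 and 16.8 in low_to_low libraries, and the groups overlapped on the deposited scale. On that scale the typical tested region was 0.30 lower (log2) in high_to_high libraries. The gene start was called in low_to_low replicate 2 alone, at 15.4. The region at chr11:52275491-52275679, with 81.6 in the naive and 100.8 in the antigen-experienced library, was called at day 9 in high_to_high replicate 2 alone, at 17.3. Low_to_low replicates 2 and 3 had a region at chr11:52254100-52254272, at 11.6 and 7.73.

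Peaks listed in one state and not in the other were many more, and their fold over the surrounding signal was mostly close to the peak caller's threshold. Of 44910 regions called in both high_to_high libraries, 1009 (2.25%) were called in no low_to_low library, and of 41376 called in all low_to_low libraries, 296 (0.715%) were called in no high_to_high library. Their median levels were 8.78 and 6.97 tags per 10 M, and the median of their lowest fold over the surrounding signal was 4.78 and 4.50, where the authors required 4. Of the 1009, 433 (42.9%) had a low_to_low peak within 1 kb, and of the 296, 124 (41.9%) had a high_to_high peak within 1 kb. The counts depended on the libraries at hand: without high_to_high replicate 1 they were 7135 and 679, without high_to_high replicate 2 they were 2380 and 3149, without low_to_low replicate 1 they were 1516 and 727, without low_to_low replicate 2 they were 1837 and 493, and without low_to_low replicate 3 they were 1403 and 1014. A region of high_to_high alone needed a peak in 2 libraries and a region of low_to_low alone in 3, so the counts of the 2 states are not like for like. They have no test.

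The strongest of these peaks lay close to peaks of the other state. The 8 regions with the highest mean called in both high_to_high and in no low_to_low library, at Tbl2, Serpini1, Ptma, Letm2, Gmnn, Plcxd2, Bach2 and Cul5, had a low_to_low peak 24 to 830 bp away. The 8 in the other direction, at Psma3, Tdrd3, Rpl7, Mcm9, Ostc, U2af2, Nsmce2 and Smad3, had a high_to_high peak 45 to 349 bp away. At Gmnn, which encodes the replication inhibitor geminin, the high_to_high peaks held 43 and 51.4 and a low_to_low peak began 127 bp away. Among peaks at least 8-fold over the surrounding signal, with a value of at least 10 and no peak of the other group within 1 kb, 1 region remained for high_to_high and 0 for low_to_low. It lay more than 100 kb from any gene (chr1:128782390-128782630), with 21.1 and 21.3 in high_to_high and 15.5, 17.9 and 16.6 in low_to_high libraries. It was also on the naive and antigen-experienced lists, at 15.9 and 57.9, and not on the effector list.

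At genes of the lists, 36 of the 1009 regions (3.57%) and 13 of the 296 (4.39%) were found, against 3.05% of all regions called in both high_to_high libraries and 3.03% of those called in all low_to_low libraries. Of these, 21 and 9 had no peak of the other group within 1 kb. Those of high_to_high libraries lay, for example, in Ets1, an ETS factor gene (chr9:32706262-32706475, 34.9 and 31.3), and on the start of Lef1, the gene of the TCF-1 relative LEF-1 (chr3:131112280-131112545, 30.4 and 23.6). Their peaks were 4.11 to 4.65 times the surrounding signal. Both Tet3 (chr6:83437325-83437540) and Foxp1 (chr6:99403958-99404238) had such a region as well, at 17.2 and 14.5 and at 19.8 and 15.4. Those of low_to_low libraries lay in Ptpn22, a phosphatase gene that restrains T cell receptor signalling (chr3:103872731-103873015, at 18.3, 29.9 and 21.5), and in Cblb, a ubiquitin ligase gene that does the same (chr16:52064560-52064863, at 19.8, 23.3 and 23.2). A region in S1pr5, the gene of a sphingosine-1-phosphate receptor (chr9:21244504-21244977), was called at 14.6, 17.1 and 13.3 in low_to_low libraries. Some of these genes held such regions of both states. A region 3707 bp from Lef1 (chr3:131228064-131228333) was called in low_to_low libraries alone of the 2 states, at 10.4, 10 and 8.16, and 9563 bp from a high_to_high peak. At Foxp1 there were 2 regions of each state, those of low_to_low libraries 52 and 125 bp from a high_to_high peak. Cblb also held one of high_to_high libraries (chr16:52095346-52095707, 13.8 and 11.8), 75 bp from a low_to_low peak. The examples were chosen after their values were seen.

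With only the 5 compared libraries in the fit, 37844 regions could be tested, 3461 more than before. Limma then called 198 more open (0.523%) and 12 less open (0.0317%). Of the 3461 regions added, 4 were more open and 1 less open, and those 4 were a smaller share than the 0.523% of all 37844. Of the more open ones, 3 were in Lman2l (10.8 and 9.25 in high_to_high, 3.81, 6.09 and 7.09 in low_to_low libraries) and Diaph3 (8.13 and 7.42 in high_to_high, 4.18, 4.54 and 5.37 in low_to_low libraries) and 82005 bp from Mrpl46 (11.6 and 11.2 in high_to_high, 4.06, 3.46 and 6.02 in low_to_low libraries). The fourth, at chr15:54114061-54114539, had no gene within 100 kb and held 14.1 and 9.75 in high_to_high and 5.04, 4.06 and 5.16 in low_to_low libraries. The less open one, at chr2:128407079-128407343, also had no gene within 100 kb and held 10.3 and 8.09 in high_to_high and 20.4, 25.6 and 23.4 in low_to_low libraries (-0.95 ± 0.16, limma adjusted p = 0.00282). The groups did not overlap at any of the 5.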

How the data were processed

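Open chromatin was measured by ATAC-seq, and the files are peak lists, 1 per library, called with HOMER 4.10 findPeaks on each library alone, per the file headers. As signal, the authors deposited a normalized tag count per peak, on a scale of 10 M (mega) tags per library, and as a ratio the fold over the surrounding 10 kb, with a minimum of 4. Bowtie2, DESeq2 (without its use) and build mm10 are named in the submitters' processing notes. The members, gene lists and tests were chosen with earlier results of these data known.

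Peaks on chromosomes 1 to 19 and X were merged at 1 bp overlap (checked with bedtools 2.31.1), and a region took its strongest peak in each library. Values were log2(normalized tag count + 1), centred on each library's median, and were compared with limma 3.58.1 in R 4.3.3 (3 groups of 8 libraries, trended eBayes, Benjamini-Hochberg) over regions called in all 8. This scale understates changes of low values. Read counts were not used, so counting intervals are not given. Each region was given the closest protein-coding gene span within 100 kb (RefSeq, GRCm38.p6), which reached 94.4% of regions and does not show regulation. A gene start is the window from 250 bp before to 50 bp after it.

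The fit was tested on simulated data. The text names the 15 more open regions with the lowest p that have a gene (1 per gene), the less open regions up to 15, called regions at listed genes, on gene starts or in pairs at 1 gene, all regions in Tcf7, and the 8 highest regions present in 1 state alone. Alternatives changed the pseudocount, filter, scaling, merging, peak threshold, model and libraries.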

Additional observations from a re-analysis of the deposited data

How the results depend on the processing

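Of the 192 more open regions every one kept a positive fold change, and of the 13 less open regions every one a negative one, under the alternatives fitted on the same regions. They were chosen by these fold changes in the same libraries, so the kept signs are a description and no independent check. The counts moved more. Those of more and less open regions were 330 and 44 with the replicate number as a block, 0 and 0 with the percentage of tags in peaks as a covariate, and 149 and 7261 on the deposited scale. The count of less open regions was also 25 with a pseudocount of 5, 8 with a mean value of at least 10, 6 with cyclic loess, 8 with summed peaks and, in an alternative added after seeing the data, 23 with log2 total tags as a covariate. Leaving out 1 library gave 48 to 297 more open and 2 to 98 less open regions. A group left with 1 library was assumed to vary like the others. The causes were not tested.

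The labels do not say that a replicate number marks a shared animal, batch or day. Deviations of same-numbered high_to_high and low_to_low libraries correlated at -0.01 and -0.04, and those of low_to_high and low_to_low libraries at 0.30, 0.14 and 0.16, against -0.19 to 0.02 for different numbers.

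Regions present in 1 state alone numbered 444 (high_to_high) and 98 (low_to_low) with a mean of at least 10. With no peak of the other group within 1 kb they numbered 576 and 172, and with the added floor of 8-fold and 10 tags 1 and 0, both chosen after seeing the data. Leaving out 1 library gave 1403 to 7135 and 493 to 3149. No named region changed sign under any alternative run, but these regions were chosen by their fold changes in the same libraries. High_to_high has 2 libraries, so regions that did not pass may still differ.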
